A study of Homo sapiens with 4 samples.

Results

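Chromosome 19 carries the largest collection of zinc finger genes in the human genome, and the 240 protein-coding genes on it whose symbol is ZNF followed by a number were followed here in lung adenocarcinoma (LAD) cells with and without active AKT1. They were found by matching the 60558 Ensembl identifiers of the deposited files to GENCODE release 44, with no use of expression values. The study asked which transcripts change when AKT signalling is constitutively on. A549 and HCC827, established LAD cell lines, were transduced with a construct for myr-AKT1, an AKT1 kept at the membrane and constitutively active, or with the empty vector. Each of the 4 conditions, vector and myr-AKT1 in each line, was sequenced as 1 library of 16322183 to 33530317 recovered reads, the myr-AKT1 library being the shallower of each pair. A difference within a line therefore has no replicate check, and the intervals given below are 95% Clopper-Pearson intervals that cover counting error only.

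Most of these genes encode KRAB zinc finger proteins. A tandem array of C2H2 fingers reads DNA, with a few residues of each finger contacting the bases, and the KRAB domain near the start of the protein binds TRIM28 (KAP1), which brings in the histone methyltransferase SETDB1, HP1 proteins and histone deacetylases and so silences the bound site. Many of the proteins bind transposable elements, and the genes arose by repeated local duplication, which is why they lie in clusters of neighbours that resemble each other. In the canonical translations of the 240 genes a median of 12 finger motifs was counted, from 1 in ZNF428 to 36 in ZNF208, and 196 genes matched a KRAB-like motif. Where the distance between neighbours had to exceed 500 kb to separate them, the genes fell into 20 clusters, of which 8 held a single gene and 10 held at least 5 genes, 228 in all.

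The cluster of 37 genes from ZNF101 to ZNF254, at 19.67 to 24.13 Mb of GRCh38 on the short arm next to the centromere, stood out in the comparisons below, and its promoters resembled each other closely. Over 406 pairs of its windows of 250 bases before the RefSeq start, the median identity was 79.2%, against 40.8% over 19465 pairs from different clusters. The last 130 bases before the start are shown for the 5 members of the cluster with the lowest HCC827 values whose window lies outside the annotated gene, on the gene's strand, with capitals marking runs of at least 8 bases present in all 5. ZNF681 is at chr19:23758892-23759021 (minus strand), ZNF724 at chr19:23250395-23250524 (minus), ZNF100 at chr19:21767580-21767709 (minus), ZNF66 at chr19:20776174-20776303 (plus) and ZNF492 at chr19:22634194-22634323 (plus), all in RefSeq on GRCh38.p14.
ZNF681: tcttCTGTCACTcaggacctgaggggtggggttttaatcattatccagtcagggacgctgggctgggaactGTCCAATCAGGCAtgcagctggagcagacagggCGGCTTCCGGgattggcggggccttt
ZNF724: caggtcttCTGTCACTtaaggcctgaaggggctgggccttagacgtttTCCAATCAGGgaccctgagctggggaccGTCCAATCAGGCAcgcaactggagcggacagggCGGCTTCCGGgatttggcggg
ZNF100: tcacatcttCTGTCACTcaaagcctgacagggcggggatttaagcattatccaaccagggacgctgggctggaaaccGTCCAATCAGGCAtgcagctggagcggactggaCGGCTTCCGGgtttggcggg
ZNF66: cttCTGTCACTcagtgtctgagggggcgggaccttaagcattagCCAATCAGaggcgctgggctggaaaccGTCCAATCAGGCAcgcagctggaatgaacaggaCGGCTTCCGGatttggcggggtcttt
ZNF492: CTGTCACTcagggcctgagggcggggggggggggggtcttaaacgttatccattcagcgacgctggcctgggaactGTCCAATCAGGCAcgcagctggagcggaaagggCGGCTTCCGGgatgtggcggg
The middle run holds CCAAT, the core letters of the CCAAT box, which the factor NF-Y is known to bind in many promoters. The runs were also in the window of ZNF486 (chr19:20167084-20167213, plus strand), the member of the cluster with the highest HCC827 value, shown for comparison.
ZNF486: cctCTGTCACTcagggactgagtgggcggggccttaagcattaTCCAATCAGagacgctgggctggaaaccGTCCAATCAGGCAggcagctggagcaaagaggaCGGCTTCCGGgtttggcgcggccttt

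RefSeq windows were found for 210 of the 240 members, 261 windows in all. The commonest run of 10 bases among the 30 windows of the centromeric cluster was TCCAATCAGG, which, on either strand, was present in 26 of them (86.67%), in 17 of the 231 windows of other members (7.36%) and in 0.342% of all 35116 promoter windows. Because the run was chosen for its frequency in the cluster, these shares only describe the windows. Of the cluster's members past the filter in HCC827, it was in 6 of the 6 higher ones and 18 of the 20 lower ones that had a window. CCAAT on either strand was in 96.67% of the cluster's windows, in 40.26% of those of other members and in 32.01% of all windows, and the GC box GGGCGG was in 73.33% of the cluster's windows, 63.22% of all members' windows and 42.64% of all windows. The STAT motif TTCCNGGAA and the forkhead motif TGTTTAC, sought because STAT3 and the FOXO factors act with or below AKT, were in 0 of the cluster's windows and in 2.3% and 0.77% of the members' windows. Over all promoters the shares were 0.97% and 2.98%. The E box CACGTG and the cyclic AMP element TGACGTCA were likewise in 0 of the cluster's windows, in 3.83% and 2.68% of the members' windows and in 6.34% and 1.65% of all windows. A match gives the letters of a window only, not a bound site.

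AKT1 itself had normalized read counts of 4243 in A549-vector and 6297 in A549-myr-AKT1 cells, and of 2175 and 4805 in HCC827, so it was higher in both libraries labelled AKT1. All 5 epithelial markers (KRT8, KRT18, KRT19, EPCAM and CDH1) were present in all 4 libraries, at summed normalized counts of 172037 and 142807 in A549 and 148253 and 76398 in HCC827. They moved with the comparison, in both directions within each line. On the log2 scale 3 were higher in A549, KRT19 by 2.65, CDH1 by 1.39 and EPCAM by 0.59. The 2 lower there were KRT8 (-0.36) and KRT18 (-0.38). In HCC827 4 were lower, KRT8 (-1.81), KRT18 (-1.75), KRT19 (-0.75) and EPCAM (-0.22), and 1 was higher, CDH1 (0.31). Of the 10 markers of leukocytes, endothelium and fibroblasts, CD3E and COL1A2 were at 0 reads in every library, while CD14 went from 40 to 685 reads in A549 and from 20 to 68 in HCC827, and COL1A1 from 88 to 668 and from 56 to 142. The summed normalized counts of the leukocyte list were 35.8 and 792 in A549-vector and A549-myr-AKT1 cells, 784 of the latter from CD14, and 19.9 and 85.6 in HCC827. Those of the endothelial list were 13.1 and 137, and 76.3 and 138, and those of the fibroblast list 82.1 and 784, 765 of the latter from COL1A1, and 51.7 and 184. In A549 the endothelial CDH5 went from 1 to 59 reads and PECAM1 from 13 to 61. PTPRC went the other way in HCC827 (5 and 0 reads), as did PDGFRB in both lines (6 and 4, 4 and 1). So did DCN in HCC827 (5 and 3) and VWF in A549 (1 and 0). The part of these markers in the results below was not tested. In bulk RNA, fewer cells of a kind and less RNA per cell cannot be told apart.

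Levels were set side by side as RPKM computed from the recovered reads, that is reads per kb of exon, scaled to the library's total. The highest of all members in A549 was ZNF146, a protein made of fingers without a KRAB domain, at 71.1 in A549-vector and 44.3 in A549-myr-AKT1 cells. In HCC827 it stood at 38.5 and 22.8. In HCC827-myr-AKT1 cells ZNF460, a KRAB zinc finger gene of the distal long arm, was above it at 33.4, having been at 25.2 in HCC827-vector cells, while in A549 it was at 18.04 in the vector control and 17.4 with myr-AKT1. ZNF121, at 13.8 and 6.05 in A549 and 21.6 and 16.5 in HCC827, and ZNF317, at 10.1 and 6.86 and then 16.0 and 21.4, followed in HCC827. In A549 they were accompanied by ZNF428, a short protein with a single finger motif, at 11.1 and 16.4, and by ZNF260 at 11.97 and 9.04. These genes were the exception. The 240 members together took 0.275% of the reads of A549-vector and 0.216% of A549-myr-AKT1, and 0.455% and 0.454% in HCC827, so that the share was lower with myr-AKT1 in A549 and near equal in HCC827.

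Many of these genes were at or near 0 reads in A549 and well counted in HCC827, a comparison of lines with different genomes that has no test here. With 3 reads taken as the floor of detection, 52 members (21.67%) were at or under it in A549-vector and 64 (26.67%) in A549-myr-AKT1 cells, against 19 (7.92%) in HCC827-vector and 21 (8.75%) in HCC827-myr-AKT1 cells. Protein-coding genes in general did not show this, with 27.74% and 26.46% at or under the floor in A549 and 31.16% and 30.91% in HCC827. The members at the floor were grouped along the chromosome. In the centromeric cluster 20 and 22 of 37 genes were at or under it in the A549 libraries and 8 in each HCC827 library, and in the cluster of 39 genes from ZNF175 to ZNF331 (51.57 to 53.58 Mb) 12 and 16 were in A549 and 1 in each HCC827 library. The cluster from ZNF653 to ZNF791 (11.48 to 12.64 Mb, 25 genes) had 11 and 10 in A549, and 1 and 2 in HCC827.

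For 21 members both A549 libraries held at most 3 reads and both HCC827 libraries at least 100, and 19 of them came from 2 clusters, 9 from the centromeric one and 10 from the cluster at 51.57 to 53.58 Mb. ZNF83, for instance, had 0 and 0 reads in A549 and 1060 and 769 in HCC827, and ZNF93, a known repressor of LINE-1 elements, had 0 and 0 reads against 522 and 212. ZNF546 alone showed the reverse, with 744 and 575 reads in A549 and 2 and 0 in HCC827. The share of all genes that met the same limits was not counted, so these counts describe the members only. At the depth of these libraries a count of 0 allows up to 3 reads. For such members no effect of myr-AKT1 could be measured in A549, and the results for A549 below concern the genes that this line expressed.

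**Figure D1:**
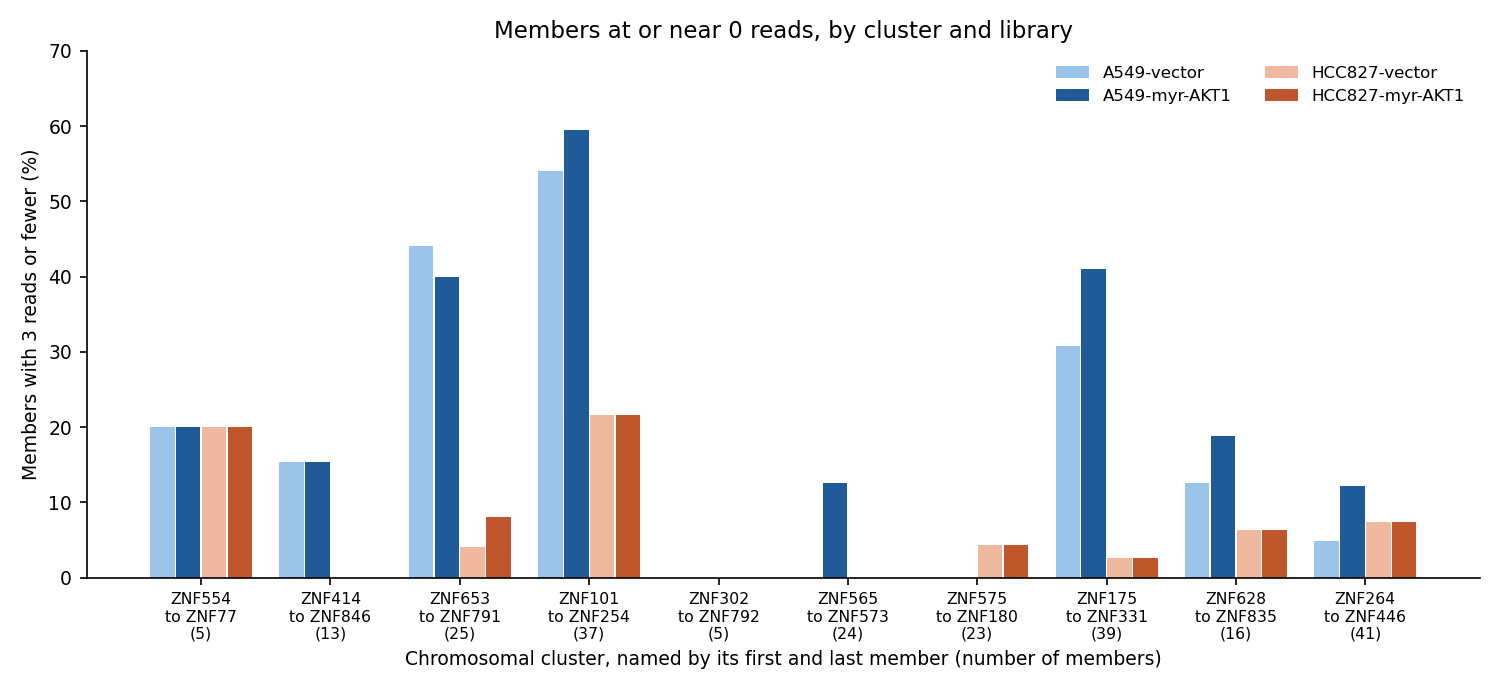
Share of members with 3 reads or fewer (percent, bars from 0) in each of the 10 clusters with at least 5 members, by library, with vector in pale and myr-AKT1 in dark colour. The A549 bars are tallest in the centromeric cluster (20 and 22 of 37 genes) and stand above the HCC827 bars in the clusters beginning with ZNF653, ZNF101 and ZNF175.

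In A549, most members were lower with myr-AKT1. Of the 240 members, 169 had a mean normalized count of at least 10 over the pair of libraries, and their median log2 fold change was -0.36 (quartiles -0.74 and -0.00), or 77.86% of the vector level. Of these 169, 127 were lower and 42 higher in A549-myr-AKT1 cells, and the counting interval lay wholly below 0 for 94 (55.62%, against 36.5% of all genes) and wholly above 0 for 20 (11.83%, against 33.33%). Past a log2 fold change of 1 there were 23 lower members (13.61%, where 9.87% of all 18750 genes past the same filter were lower by as much) and 5 higher members (2.96%, where 15.1% of all genes were). The median over all genes was -0.03. ZNF genes with a number on other chromosomes had a median of -0.18, with 70.09% lower. Their intervals lay wholly below 0 for 52.8% and wholly above 0 for 18.69%, shares nearer to those of the members than to those of all genes. The other protein-coding genes of chromosome 19 had a median of -0.04. The members had few large increases in A549, as did the ZNF genes of other chromosomes (4.21% higher past 1). Decreases past 1 took a larger share of the members than of all genes or of those ZNF genes (4.67%).

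The lowest value of A549 belonged to ZNF724 (ENSG00000196081, chr19:23221599-23250394), a KRAB zinc finger gene of the centromeric cluster with 160 reads in A549-vector and 20 in A549-myr-AKT1 cells. Its log2 fold change was -2.61 (95% interval -3.36 to -1.93). ZNF256, on the distal long arm, went from 52 to 7 reads (-2.50, -3.89 to -1.36), and ZNF296, a gene without a KRAB-like motif that lies alone, from 44 to 6 (-2.48, -4.01 to -1.25). Both rest on few reads, and ZNF296 had 8 and 1 reads in HCC827, under the filter.
ZNF850, with 29 finger motifs one of the longest arrays, went from 366 to 57 reads (-2.29, -2.72 to -1.89). ZNF114, which has 3 finger motifs, went from 179 to 29 reads (-2.23, -2.85 to -1.66), and ZNF530 from 167 to 41 (-1.64, -2.17 to -1.13). These 6 intervals lie wholly below -1, so the differences exceeded 2-fold beyond counting error, while the spread between cultures is unknown.

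The highest value in A549 was that of ZNF816, with 2 reads in A549-vector and 26 in A549-myr-AKT1 cells (log2 fold change 4.09, 2.09 to 7.21). It shares exons on the same strand with a readthrough gene, to which its reads could also belong, and its HCC827 value was -0.36 from 494 and 243 reads. The other 4 members higher past 1 were ZNF404 (15 and 42 reads, 1.88), ZNF554 (41 and 100 reads, 1.68), ZNF836 (11 and 24 reads, 1.52) and ZNF579 (206 and 334 reads, 1.09), and the next was ZNF382 at 0.83 from 14 and 19 reads. Of these, ZNF579 alone had over 100 reads in each library. ZNF404 and ZNF836, like ZNF816, overlap another gene on the same strand. ZNF418 did not pass the filter in A549 and went from 20 reads to 2.

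In HCC827 the members were split almost evenly between lower and higher. Of the 240, 217 passed the filter, with 111 lower and 106 higher in HCC827-myr-AKT1 cells, and the median log2 fold change was -0.03, beside -0.04 over all 17358 genes. The sign of this median depended on the scaling, as it was 0.05 with total counts. The counting interval lay below 0 for 70 members (32.26%) and above 0 for 72 (33.18%), shares near those of all genes (37.13% and 33.46%). Past a log2 fold change of 1 were 14 lower members (6.45%, background 12.4%) and 11 higher members (5.07%, background 14.1%), both smaller shares than among all genes. The other protein-coding genes of chromosome 19 had a median of 0.23 in this line, with 62.33% higher. The ZNF genes of other chromosomes had a median of -0.12, with 9.48% lower and 4.74% higher past 1, also smaller shares than among all genes.

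ZNF480, a KRAB zinc finger gene at 51.57 to 53.58 Mb, had the lowest value in HCC827, from 1762 reads in HCC827-vector to 276 in HCC827-myr-AKT1 cells (log2 fold change -2.01, -2.20 to -1.83). In A549 it went from 1262 to 605 reads (-0.67, -0.81 to -0.53). ZNF180, at the end of the cluster from ZNF575, went from 440 to 85 reads in HCC827 (-1.71, -2.06 to -1.37) and from 791 to 362 in A549 (-0.74, -0.92 to -0.56). Their intervals lay below 0 in both lines.
The other 4 of the lowest 6 were all in the centromeric cluster, among them ZNF681, ZNF724 and ZNF100, whose promoter windows are shown above. ZNF681 went from 865 to 170 reads (-1.68, -1.93 to -1.45), ZNF724 from 400 to 83 (-1.61, -1.96 to -1.26), ZNF257 from 334 to 73 (-1.53, -1.92 to -1.16) and ZNF100 from 1015 to 240 (-1.42, -1.63 to -1.21). Apart from ZNF724, they were at 4 reads or fewer in both A549 libraries.

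The members highest in HCC827 were less well counted, apart from the first. ZNF555, a neighbour of ZNF554 near the end of the short arm, went from 184 to 369 reads (log2 fold change 1.67, 1.41 to 1.93), while in A549 it had 260 and 198 reads and a value of -0.00 (-0.28 to 0.27). ZNF560 went from 35 to 61 reads (1.46, 0.84 to 2.11) and was at 0 reads in A549. ZNF792 had 10 and 16 reads (1.34), ZNF333 100 and 154 (1.29, 0.91 to 1.66), ZNF563 41 and 58 (1.16) and ZNF491 16 and 22 (1.12). ZNF555 and ZNF333 were thus the higher members with at least 100 reads in both HCC827 libraries, and neither differed from 0 beyond counting error in A549.

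Medians were then compared between clusters. In the centromeric cluster 29 of 37 genes passed the filter in HCC827, and their median was -0.60 on the log2 scale, or 65.93% of the vector level. Of these 29, 22 were lower, 18 with intervals wholly below 0, and 9 were lower past 1, so that the cluster held 9 of the 14 members lower past 1 in this line. Over all genes past the filter in HCC827, 51.93% were lower, 37.13% had intervals below 0 and 12.4% were lower past 1. In A549, 14 genes passed, with a median of -0.72 (60.84% of vector). Of these 14, 11 were lower, where 75.15% of all members and 51.8% of all genes were. Past 1, 3 were lower (9.87% of all genes), where the most distal cluster held 5, and none was higher. The cluster had the lowest median of those with at least 5 genes past the filter in each line. No protein-coding gene other than ZNF genes lay in it past the filter for comparison.

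**Figure D2:**
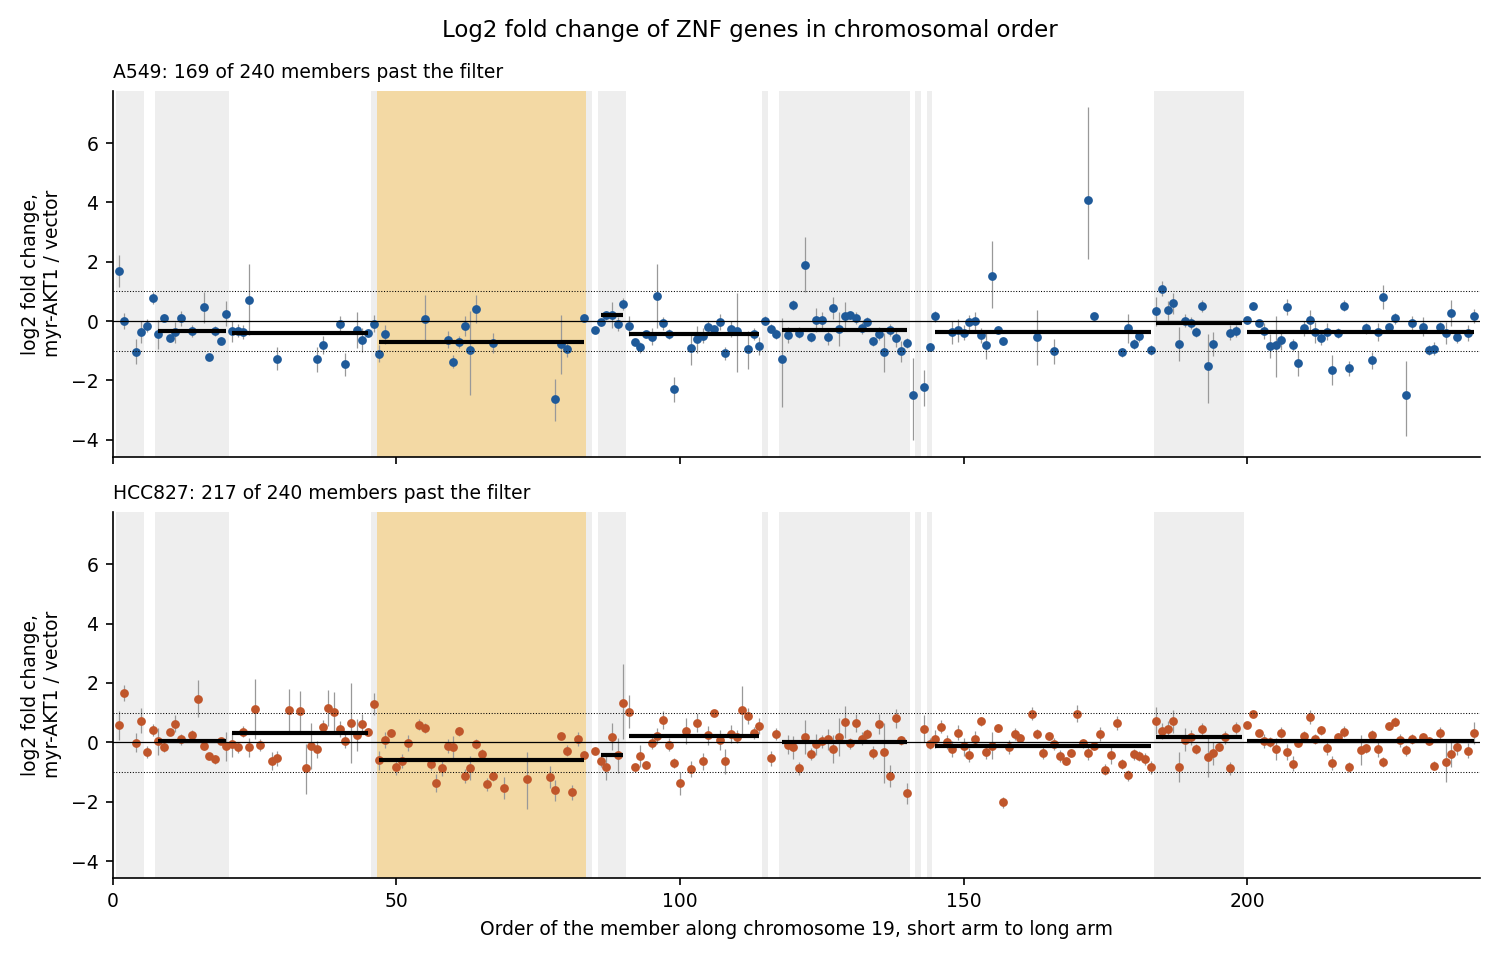
Log2 fold change (myr-AKT1 over vector) of the members past the filter in their order along chromosome 19, A549 above (169 members) and HCC827 below (217), with grey lines for 95% counting intervals, black bars for medians of clusters with at least 5 genes, shading for clusters (the centromeric one in yellow) and dotted lines at 1 and -1. In HCC827 the points of the centromeric cluster lie low (median -0.60) while those on both sides are spread around 0, and in A549 most points lie below 0 along the whole chromosome.

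Within the cluster the genes did not move alike. Besides ZNF681, ZNF724, ZNF257 and ZNF100, the members lower past 1 in HCC827 were ZNF66, from 455 to 112 reads (log2 fold change -1.36, -1.67 to -1.06), ZNF492 from 48 to 13 (-1.22), ZNF730 from 302 to 85 (-1.17), ZNF43 from 1715 to 488 (-1.15) and ZNF708 from 640 to 185 (-1.13, -1.37 to -0.89). ZNF66 had 14 reads in A549-vector and 0 in A549-myr-AKT1 cells, at least 3.56-fold lower with 0 set to a floor of 3 reads per library, and ZNF43 went there from 218 to 100 reads (-0.73, -1.09 to -0.39).
Others of the same cluster were higher in HCC827-myr-AKT1 cells. ZNF486 went from 513 to 487 reads (0.59, 0.41 to 0.77), ZNF737 from 620 to 543 (0.47, 0.30 to 0.64), ZNF431 from 772 to 629 (0.37, 0.21 to 0.52) and ZNF506 from 986 to 778 (0.32, 0.18 to 0.46). ZNF91, known as a repressor of SVA retrotransposons and the cluster's best-counted gene in HCC827, had 2534 and 1873 reads (0.23, 0.14 to 0.31), while ZNF93 was lower (-0.64, -0.87 to -0.40). Fewer reads can stand for a higher level here because 1 read was worth 1.26 normalized counts in the myr-AKT1 and 0.795 in the vector library of HCC827. Members named for their known role or their place in a cluster, rather than for the size of their change, were chosen after their values were seen.

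The cluster also differs from the rest of the members in composition. Its median GC content over exons was 36.84%, and in HCC827 protein-coding genes other than ZNF genes in the lowest of 5 GC groups (30.73% to 40.58%) stood at a median of -0.39 on the log2 scale, against 0.22 in the highest. Restricted to members of at most 40.58% GC, the 25 in the cluster had a median of -0.42, and the 52 elsewhere had one of -0.20, with 8 and 5 of them lower past 1. In A549 the lowest and highest GC groups of other coding genes stood at -0.10 and 0.06, and the members of low GC at -0.72 in the cluster (12 genes) and -0.47 elsewhere (42 genes). Among the members, the lowest and highest GC groups stood at -0.52 and 0.02 in A549 and at -0.28 and 0.09 in HCC827. The lowest and highest GC groups thus differed in both lines, and the part of GC content in the cluster's median was not tested. Without the members of which over 10% of the 100-base words occur in other genes, the cluster's median was -0.41 in HCC827 and -0.66 in A549.

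Other clusters had medians of opposite sign in the lines, a difference that was not tested. At 11.48 to 12.64 Mb, 11 of the 12 genes past the filter were lower in A549 (median log2 fold change -0.39), while in HCC827 13 of 22 were higher (0.30) and 5 were higher past 1, all of them with under 100 reads in each library, among them ZNF563, ZNF491 and ZNF442 (37 and 48 reads). Counts in the same cluster were larger for ZNF791, at 1120 and 645 reads in A549 (-0.41, -0.55 to -0.26) and 1120 and 898 in HCC827 (0.34, 0.22 to 0.47). At 36.18 to 37.82 Mb, 20 of 21 genes were lower in A549 (median -0.45) and 14 of 24 higher in HCC827 (0.21). ZNF875 was one of them, with 1666 and 1064 reads in A549 (-0.26, -0.37 to -0.14) and 1253 and 1567 in HCC827 (0.99, 0.88 to 1.09). ZNF146, in the same cluster, was lower in both, from 9881 to 4620 reads (-0.71, -0.76 to -0.66) and from 4361 to 1541 (-0.84, -0.92 to -0.75). Of all genes past the filter, 51.8% were lower in A549, and in HCC827 48.07% were higher, 14.1% past 1. Few other protein-coding genes within these clusters passed the filter. At 11.48 to 12.64 Mb their medians were -0.17 in A549 (2 genes) and 0.13 in HCC827 (3). At 36.18 to 37.82 Mb they were -0.44 and -0.415 (3 in each line).

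On the long arm beyond these, the cluster at 43.53 to 44.5 Mb had medians of -0.29 in A549 (23 genes) and 0.00 in HCC827 (22), and that at 51.57 to 53.58 Mb of -0.38 (20) and -0.13 (38). Other protein-coding genes past the filter had medians of 0.45 (7 genes) and -0.20 (8) within the former. They had -0.14 (2) and -0.16 (3) within the latter. In the latter ZNF331, an imprinted gene, was lower in both lines, from 1262 to 491 reads (log2 fold change -0.97, -1.12 to -0.82) and from 637 to 224 (-0.84, -1.07 to -0.62), whereas ZNF578 went from 309 to 381 reads in HCC827 (0.97, 0.74 to 1.19) with 0 reads in A549. The cluster at 55.48 to 56.67 Mb, whose genes are GC-rich (63.3%) and match the KRAB-like motif in 6 of 16 cases, had medians of -0.05 and 0.17. Other protein-coding genes within it stood at -0.16 and 0.14 (9 in each line). In the most distal cluster, 57.19 to 58.48 Mb, 27 of 36 genes were lower in A549 (-0.36) and 5 of them past 1, and 21 of 38 were higher in HCC827 (0.04) with none past 1 in either direction. Of all genes past the filter in A549, 51.8% were lower and 9.87% lower past 1. Other protein-coding genes within this cluster had nearly the same medians, -0.38 in A549 (8 genes) and 0.02 in HCC827 (11).
ZNF274, of that distal cluster, is known to bring SETDB1 to the zinc finger genes of chromosome 19 themselves. It had 1085 and 420 reads in A549 (-0.98, -1.14 to -0.81) and 1321 and 857 in HCC827 (0.04, -0.09 to 0.16). ZNF417 and ZNF587, neighbours known to repress HERV-K proviruses, were at 0.09 (-0.09 to 0.27) and -0.20 (-0.34 to -0.06) in A549 and at 0.70 (0.55 to 0.84) and 0.56 (0.45 to 0.67) in HCC827. Of their 100-base words, 23.48% and 14.66% occur in other genes, so their counts are less certain.

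Successive members were also compared by direction. Of 168 pairs of successive members past the filter, 104 (61.9%) had the same sign in A549, where 75.15% of the members were lower, and of 216 pairs in HCC827, 116 (53.7%) did. The share for successive other protein-coding genes of chromosome 19 was 53.38% and 53.05%. Members with and without the KRAB-like motif had similar values. The median on the log2 scale with it was -0.36 in A549 (133 genes) and -0.03 in HCC827 (179), and without it -0.36 (36) and 0.07 (38). Outside the centromeric cluster the values with and without it were -0.34 and -0.36 in A549, and 0.03 and 0.10 in HCC827.

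Few members were past 1 in the same direction in both lines. Of 166 members past the filter in both, 66 were lower in both (39.76%, against 36.4% of all genes), 24 higher in both (14.46%, against 29.3%) and 76 of opposite sign (45.78%, against 34.3%). None was higher past 1 in both (background 4.6% of 15704 genes) and 1, ZNF724, was lower past 1 in both (background 4.08%), and 0 lay past 1 in opposite directions. Across these 166 genes, the values of the lines had a Pearson r of 0.28 and a Spearman rho of 0.34. Over all genes these were 0.43 and 0.42. Genes share their libraries and are not independent. Of 207 ZNF genes of other chromosomes past the filter in both, 46.38% were lower in both and 14.49% higher in both. Past 1 in both lines, 4 of those 207 were higher and 3 lower. Their Pearson r was 0.46 and their Spearman rho 0.37. ZNF551 came near to ZNF724, from 673 to 171 reads in A549 (log2 fold change -1.59, -1.84 to -1.34) and from 1182 to 421 in HCC827 (-0.83, -0.99 to -0.66).

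**Figure D3:**
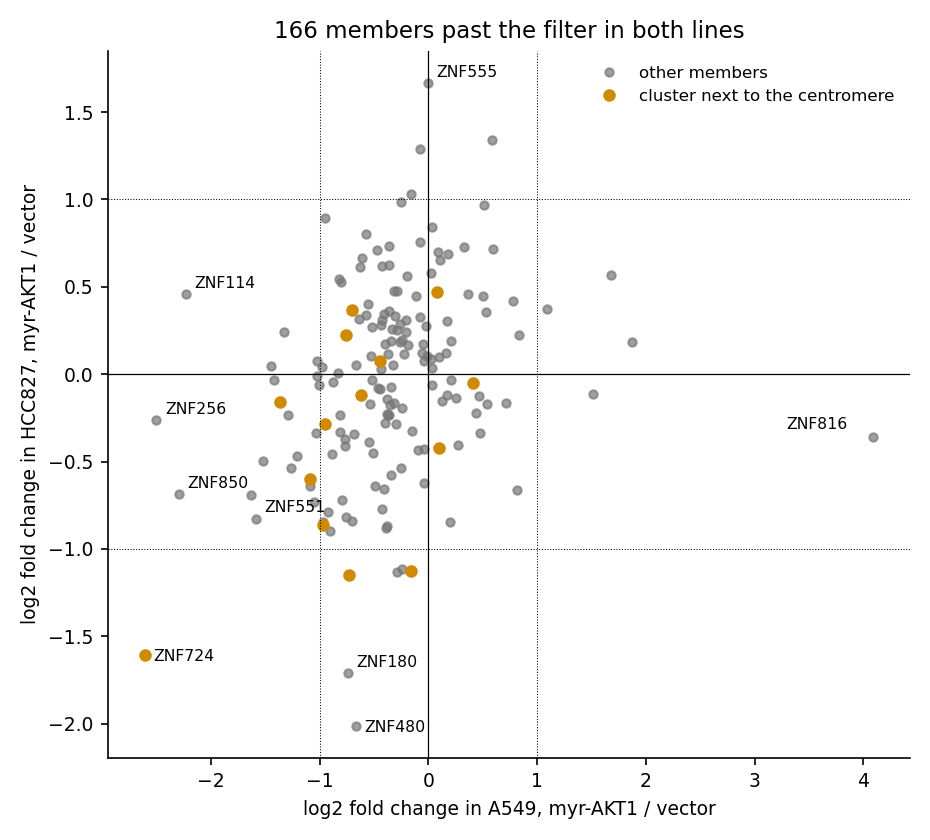
Log2 fold change (myr-AKT1 over vector) in A549 (x axis) against HCC827 (y axis) for the 166 members past the filter in both lines, with the centromeric cluster in yellow, other members in grey and dotted lines at 1 and -1. ZNF724 is the single point in the lower left corner past -1 on both axes, and the upper right corner past 1 is empty.

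The only test with a residual degree of freedom took all 4 libraries, with cell line as a block, in limma on log2(value + 1), over 19314 genes. Of the 218 members tested, 0 were higher (background 1.29%) and 0 lower (background 1.73%) at an adjusted p under 0.05. At an unadjusted p under 0.05 there were 1 higher and 15 lower members, 7.34% of those tested against 18.42% of all genes. The quasi-likelihood test of edgeR, run on recovered reads, also called 0 and 0 members, where it called 196 and 228 of the 19314 genes. DESeq2 called 0 and 1 members, where it called 621 and 518 genes. ZNF724 had the lowest adjusted p in limma, 0.085, with a log2 fold change of -2.08 (SE 0.52), and it was the member that DESeq2 called. It shares 51.46% of its 100-base words with other genes and overlaps another gene on its strand, so its counts are uncertain. The next were ZNF480 (-1.34, SE 0.37, limma adjusted p = 0.11), ZNF551 (-1.20, SE 0.34, 0.11), ZNF66 (-2.54, SE 0.76, 0.13), ZNF146 (-0.77, SE 0.24, 0.14) and ZNF850 (-1.48, SE 0.46, 0.14). All 6 were lower in both lines, and none passed the test with 1 residual degree of freedom.

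RNAs for the proteins through which KRAB zinc fingers act were compared in the same way. Of a list of 25 genes for TRIM28 and its partners, heterochromatin proteins and DNA methylation, 24 passed the filter in each line. In each line 19 were lower (79.2%, against 51.8% of all genes in A549 and 51.93% in HCC827) and 5 higher. These were not all the same genes, as only ATF7IP and DNMT3A were higher in both lines. The medians were -0.43 in A549 and -0.46 in HCC827, beside -0.03 and -0.04 over all genes. TRIM28 went from 10790 to 5252 reads in A549 (log2 fold change -0.65, -0.70 to -0.60) and from 10420 to 3541 in HCC827 (-0.89, -0.95 to -0.84), and SETDB1 from 2244 to 1425 (-0.26, -0.36 to -0.17) and from 1735 to 910 (-0.27, -0.39 to -0.15). Lower past 1 were 2 genes in A549 (8.3% of the 24, background 9.87%), DNMT1, the maintenance DNA methyltransferase (-1.85), and UHRF1, which guides it to newly replicated DNA (-3.15). In HCC827 there were 3 (12.5%, background 12.4%), UHRF1 (-3.69), the chromatin remodeller SMARCAD1 (-1.23) and CBX3, an HP1 protein (-1.05). UHRF1 alone passed the limma fit over both lines, where it fell by 3.41 on the log2 scale (SE 0.31, adjusted p = 0.0059), and TRIM28 did not (-0.77, SE 0.24, adjusted p = 0.15). UHRF1 and DNMT1 are also genes of DNA replication, and cell cycle state was not tested.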

How the data were processed

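RNA of A549 and HCC827 cells carrying myr-AKT1 or empty vector was sequenced by the authors from strand-specific libraries, described as poly(A)-selected in the paper and rRNA-depleted in the labels. Reads were mapped with Bowtie2, which does not splice, to hg38 and assigned to Ensembl genes with HTSeq. The values, a signal as deposited, are reads per gene over a library's size factor, estimated within each line, although the Methods name RPKM, so levels set across lines used total reads. Dividing by the value of 1 read gave whole reads (tolerance 0.001) for 99.9961% to 100% of values with reads, and edgeR on them called 196 genes higher and 228 lower.

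Genes were named from GENCODE 44 (297 of 60558 identifiers unmatched). Log2 fold changes came from deposited values, with 0 reads set to 3 and a filter at a mean of 10. The fit was planned with edgeR for counts; as values were normalized, limma 3.58.1 was used (filterByExpr, trend, Benjamini-Hochberg adjustment), with edgeR 4.0.16 and DESeq2 1.42.0 as alternatives. On simulated counts, limma and edgeR were tested with known changes. Finger motifs (C, 2 to 4 residues, C, 12 residues, H, 3 to 5 residues, H) were counted in translated GENCODE canonical coding sequences.

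Members and lists were chosen with earlier results of these data known. Members were named by a rule: the 6 highest and 6 lowest per line, those past 1 in both lines, the 6 lowest p of the fit, the 4 highest levels per kb and line, and those with at most 3 reads in 1 library and at least 20 in the other of the line. Cultures are not replicated, so intervals and floors cover counting error only.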

Additional observations from a re-analysis of the deposited data

Results flagged for a closer look

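Among the members past the filter in both lines, 31 had counting intervals on opposite sides of 0 in A549 and HCC827, 27 of them lower in A549 and higher in HCC827 and 4 the reverse. These are 18.67% of 166 members, where 14.66% of 15704 genes had such intervals (7.27% lower in A549 and higher in HCC827, 7.39% the reverse). ZNF816, ZNF114 and ZNF317, named above, were among these, each with 1 library per condition, so the difference was not tested. The log2 fold change of ZNF816 was 4.45 higher in A549 than in HCC827 (4.09 and -0.36), and rests on 2 reads in A549-vector cells. That of ZNF114 differed by -2.69 (-2.23 and 0.46), and that of ZNF317, among the highest members per kb in HCC827, by -0.92 (-0.58 and 0.34).

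Cluster medians of opposite sign in the lines, A549 minus HCC827, were likewise not tested, and are given for clusters with at least 5 genes past the filter in both lines. The cluster at 2.82 to 2.94 Mb had 4 such genes in each line, with medians of -0.18 in A549 and 0.65 in HCC827. The difference was -0.69 at 11.48 to 12.64 Mb, -0.65 at 36.18 to 37.82 Mb, -0.40 at 57.19 to 58.48 Mb, -0.38 at 8.51 to 9.79 Mb, -0.29 at 43.53 to 44.5 Mb and -0.22 at 55.48 to 56.67 Mb. At 34.68 to 34.96 Mb, where 5 genes from ZNF302 to ZNF792 passed the filter, it was 0.63, with medians of 0.20 in A549 and -0.43 in HCC827. ZNF181 of this cluster had 733 and 642 reads in A549 (log2 fold change 0.20, 0.04 to 0.35) and 196 and 69 in HCC827 (-0.84, -1.26 to -0.44).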

How the results depend on the processing

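Of 206 comparisons of a main value with an alternative, 186 kept it within its limits (a count within 1.5 times, a median within its 95% order-statistic interval). With size factors over all 4 libraries, which moved the median of all genes by 0.10 in A549, the A549 median of the members was -0.26 and that of the cluster at 11.48 to 12.64 Mb -0.28. The 5 members higher past 1 in A549 became 11 with at least 1 read in both libraries as the filter, 2 with a mean of at least 50, 2 without genes of same-strand overlap and 1 past a fold threshold of 2 on the log2 scale, while the 23 lower ones became 15 without overlapping genes and 5 past 2. In HCC827 the 11 higher members became 5 with a mean of at least 50, 7 without overlap and 0 past 2, and the 14 lower became 1 past 2 and, in an alternative added after seeing the data, 5 without the centromeric cluster. Lower in both lines past 1 were 3 members with at least 1 read as the filter and 0 without overlap, past 2, without shared 100-base words or without the centromeric cluster. Fewer genes entered several of these by construction. The HCC827 median of all members turned from -0.03 to 0.05 with total counts, 0.02 with size factors over all 4 libraries and 0.04 without the centromeric cluster. In the fit, lower calls went from 0 to 1 of 218 members with DESeq2, which called 518 of 19314 genes lower. They went to 6 of 233 members with every gene that had at least 1 read. There 894 of 33056 genes were called lower, a similar share. The 6 were ZNF724, ZNF66, ZNF850, ZNF180, ZNF480 and ZNF551, and the cause was not tested. A pseudocount of 0.5, TMM and edgeR called 0. Without the block 0 members were called too, but so were 0 of all 19314 genes, so that setting cannot tell members apart. The 186 alternatives for named members in the fit reversed 0 directions. The fit already pairs the libraries of a line through its block. The labels give no replicate numbers, so no other pairing was tried, and with 1 library per condition no replicate could be left out. Depth limits the members of few reads, mostly in A549.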

Other observations

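Some members with known roles outside transposon control were not described above and were chosen after their values were seen. ZNF473, which takes part in the processing of histone mRNA ends, had 1407 reads in A549-vector and 585 in A549-myr-AKT1 cells (log2 fold change -0.88, -1.02 to -0.73) and 556 and 341 in HCC827 (-0.04, -0.24 to 0.15). ZNF350, a repressor that binds BRCA1, had 146 and 90 reads in A549 (-0.31, -0.70 to 0.08) and 292 and 232 in HCC827 (0.33, 0.08 to 0.58). ZNF224, a repressor of the aldolase A gene, had 1105 and 970 reads in A549 (0.20, 0.08 to 0.33) and 708 and 437 in HCC827 (-0.03, -0.21 to 0.14).

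Among genes known for promoter methylation in tumours, counts differed widely. ZNF154 had 0 and 0 reads in A549 and 1 and 1 in HCC827, and ZNF671 had 2 and 0 against 96 and 51. ZNF582 had 34 and 9 reads in A549 (-1.53, -2.77 to -0.44) and 67 and 30 in HCC827 (-0.50, -1.17 to 0.15). ZNF677 had 0 and 0 reads in A549 and 309 and 309 in HCC827 (0.66, 0.43 to 0.90). Methylation was not measured here.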
